A study of Mus musculus with 18 samples.

Results

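The genes described are 10 that encode the transcription factor NF-κB and the proteins that act back on it. They comprise 5 subunits (*Rela*, *Rel*, *Nfkb1*, *Relb*, *Nfkb2*), 3 cytoplasmic feedback inhibitors (*Nfkbia*, *Nfkbie*, *Tnfaip3*) and 2 nuclear IκB proteins (*Nfkbiz*, *Bcl3*). They were chosen by name, 10 of the 47729 genes in the deposited table, and each name matched 1 row. RNA-Seq of the colon was available for 9 mice, 3 in each of 3 groups, every library sequenced in 2 lanes. Naive WT mice (mice 1 to 3, labelled Control) received no treatment. WT CAC mice (mice 4 to 6, labelled AOM-DSS) were WT mice given the carcinogen azoxymethane (AOM, 10 mg/kg) and 3 cycles of 2.5% dextran sulfate sodium (DSS), which injures the colon lining, so that colitis-associated cancer (CAC) develops. *Cldn2*TG CAC mice (mice 7 to 9, labelled AOM-DSS Claudin-2TG) were Villin-*Cldn2*TG mice given AOM and DSS in the same way; they carry *Cldn2*, a tight junction protein that forms a channel for cations, under the villin promoter, which is active in intestinal epithelium and not in leukocytes. All mice were on the C57BL/6 background with WT littermates as controls, their ages are not given in the sources used here, and a naive *Cldn2*TG group was not analysed here.

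NF-κB is a family of dimers held in the cytoplasm by IκB proteins. In the canonical route, receptors for TNF, IL-1 or microbial products activate the IKK complex, IκBα (*Nfkbia*) is degraded, and dimers of RelA, c-Rel and p50 (from *Nfkb1*) enter the nucleus. In the noncanonical route, receptors such as the lymphotoxin β receptor stabilize the kinase NIK (*Map3k14*), p100 (*Nfkb2*) is processed to p52, and RelB-p52 dimers are released. Many of the genes switched on encode inhibitors of the pathway itself, among them IκBα, IκBε (*Nfkbie*) and A20 (*Tnfaip3*), an enzyme that edits ubiquitin chains upstream of IKK. IκBζ (*Nfkbiz*) and BCL3 act in the nucleus with p50 or p52 homodimers. In the colon the pathway operates in epithelial cells and in leukocytes, and mRNA levels of these genes do not measure its activity, which depends on protein degradation and nuclear entry.

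The binding sequence of NF-κB, the κB motif, was searched on both strands in RefSeq promoter windows of 300 bases on GRCm38.p6 (250 bases before to 50 after a transcription start). The motif was taken as GGGRNNYYCC, where R is A or G, Y is C or T and N is any base. Sequences that depart from it in any letter are not marked. Of the 10 genes, 7 had a window and 6 of these held at least 1 match in any of their windows. Among all genes with a window, 9.55% held a match, and among all windows 8.46%. The window of *Rela*, which encodes the p65 subunit, held no match, which says only that these letters are not in it. The sites are shown because feedback genes of the pathway are known for such sequences. A match is a description of sequence and does not show binding in these mice. Each site is given 5′ to 3′ on the strand of its gene, with the match, including overlapping matches, in capitals, and with its place relative to the gene's exons in the deposited count table.
*Rel*, chr11:23771042-23771071, minus strand, 81 bases before the gene: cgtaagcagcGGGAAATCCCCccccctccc
*Nfkb2*, chr19:46304688-46304717, plus strand, 29 bases before the gene: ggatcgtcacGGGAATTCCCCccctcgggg
*Nfkb2*, chr19:46304716-46304745, plus strand, 2 bases before the gene: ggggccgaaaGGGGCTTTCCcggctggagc
*Nfkb2*, chr19:46305449-46305478, plus strand, intronic: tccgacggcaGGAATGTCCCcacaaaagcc
*Nfkb2*, chr19:46305695-46305724, plus strand, exonic: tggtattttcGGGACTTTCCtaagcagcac
*Nfkbia*, chr12:55492657-55492686, minus strand, 20 bases before the gene: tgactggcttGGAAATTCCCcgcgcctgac
*Nfkbie*, chr17:45555584-45555613, plus strand, 113 bases before the gene: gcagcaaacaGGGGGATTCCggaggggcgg
*Tnfaip3*, chr10:19015516-19015545, minus strand, intronic: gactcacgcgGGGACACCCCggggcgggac
*Tnfaip3*, chr10:19015403-19015432, minus strand, intronic: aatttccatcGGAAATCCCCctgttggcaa
*Bcl3*, chr7:19822734-19822763, minus strand, exonic: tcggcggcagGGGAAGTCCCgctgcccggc
The *Nfkb2* gene held 4 separate sites, spread over 3 windows for different transcription starts, and *Tnfaip3* held 2. The sites of *Nfkbia* and 2 of those of *Nfkb2* fall within the 50 bases before the annotated first exon. The complete 250 bases before the start are shown for *Nfkbie* and *Nfkbia*, the 2 inhibitor genes called in a comparison below.
*Nfkbie*, chr17:45555450-45555699, plus strand: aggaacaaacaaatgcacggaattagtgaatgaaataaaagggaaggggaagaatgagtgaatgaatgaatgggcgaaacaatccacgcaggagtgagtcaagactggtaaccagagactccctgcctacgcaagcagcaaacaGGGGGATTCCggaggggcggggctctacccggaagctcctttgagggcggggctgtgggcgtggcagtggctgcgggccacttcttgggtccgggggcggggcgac
*Nfkbia*, chr12:55492648-55492897, minus strand: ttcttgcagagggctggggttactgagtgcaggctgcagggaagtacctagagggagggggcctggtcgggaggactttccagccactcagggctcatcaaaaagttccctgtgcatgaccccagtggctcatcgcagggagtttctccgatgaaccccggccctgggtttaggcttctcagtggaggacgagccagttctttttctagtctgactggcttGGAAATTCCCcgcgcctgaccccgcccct

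Depth was 14142711 to 22262546 counts per mouse, and 3 counts, the limit a count of 0 allows, corresponded to 0.135 to 0.212 CPM (counts relative to library size). Lanes of 1 library were close to counting noise apart (chi-square per degree of freedom 0.995 to 1.06, against 16.8 to 66.3 for mice within a group) and were added. The labels do not say which mice shared a cage or litter, so that p-values measure the spread between these mice. The 9 colon epithelium markers summed to between 13209 and 19857 CPM in each mouse, none was at 0, and *Krt8* and *Epcam* were the 2 highest on average over the 9 mice. The label check gene *Cldn2* was higher in *Cldn2*TG CAC than in WT CAC mice (log2 fold change 0.78, standard error 0.12, adjusted p = 0.0103), lower in WT CAC than in naive WT mice (−0.82, adjusted p = 0.0138), and did not differ detectably between *Cldn2*TG CAC and naive WT mice (−0.03, adjusted p = 0.897). Naive WT mouse 1 had 214 CPM of the female RNA *Xist* and the other 8 mice at most 0.203 CPM, so that sex was mixed in the naive WT group. WT CAC mouse 4 stood apart from WT CAC mice 5 and 6 for many of the genes below, and values without it are given where it decides a call. Mouse 4 also differed in cell type markers. Its smooth muscle markers summed to 2504 CPM, against 915 and 1072 in mice 5 and 6, and its macrophage and monocyte markers to 132, against 271 and 296.

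Levels are given per mouse as CPM with the TMM normalization of edgeR. Differences are log2 fold changes from edgeR's quasi-likelihood test on the 6 mice of each comparison, with p-values adjusted by Benjamini-Hochberg over all genes tested, and a gene is called at an adjusted p under 0.05. All 10 genes passed the filter on low counts in every comparison. The 3 comparisons share mice: WT CAC mice enter the first and second and naive WT mice the first and the third, so that an opposite sign in the first and second is not independent evidence.

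In WT CAC against naive WT mice, *Nfkbie* and *Bcl3* rose, 2.49-fold and 2.12-fold, and the other 8 genes did not pass the test. In *Cldn2*TG CAC against WT CAC mice, *Nfkbie* fell 2.48-fold and the other 9 did not pass. In *Cldn2*TG CAC against naive WT mice, *Nfkbia* was the gene that changed, 1.42-fold lower. Read against all genes tested, 2 of 10 called in the first comparison stands beside 15.0% of 15437 genes, 1 of 10 in the second beside 9.54% of 14888, and 1 of 10 in the third beside 10.0% of 15013. By direction, 8.04% of all genes were called higher in the first comparison, 7.35% lower in the second and 6.07% lower in the third. Ranges of the groups did not overlap for 5 of 10 genes in the first comparison (38.0% of all genes tested), for 2 of 10 in the second (28.5%) and for 2 of 10 in the third (31.2%). These shares of the 10 are small counts near the background, so the results are those of single genes. The median log2 fold change of the 10 was 0.32, −0.42 and 0.0, and that of all genes tested was 0.0212, 0.00845 and 0.00229.

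**Figure D1:**
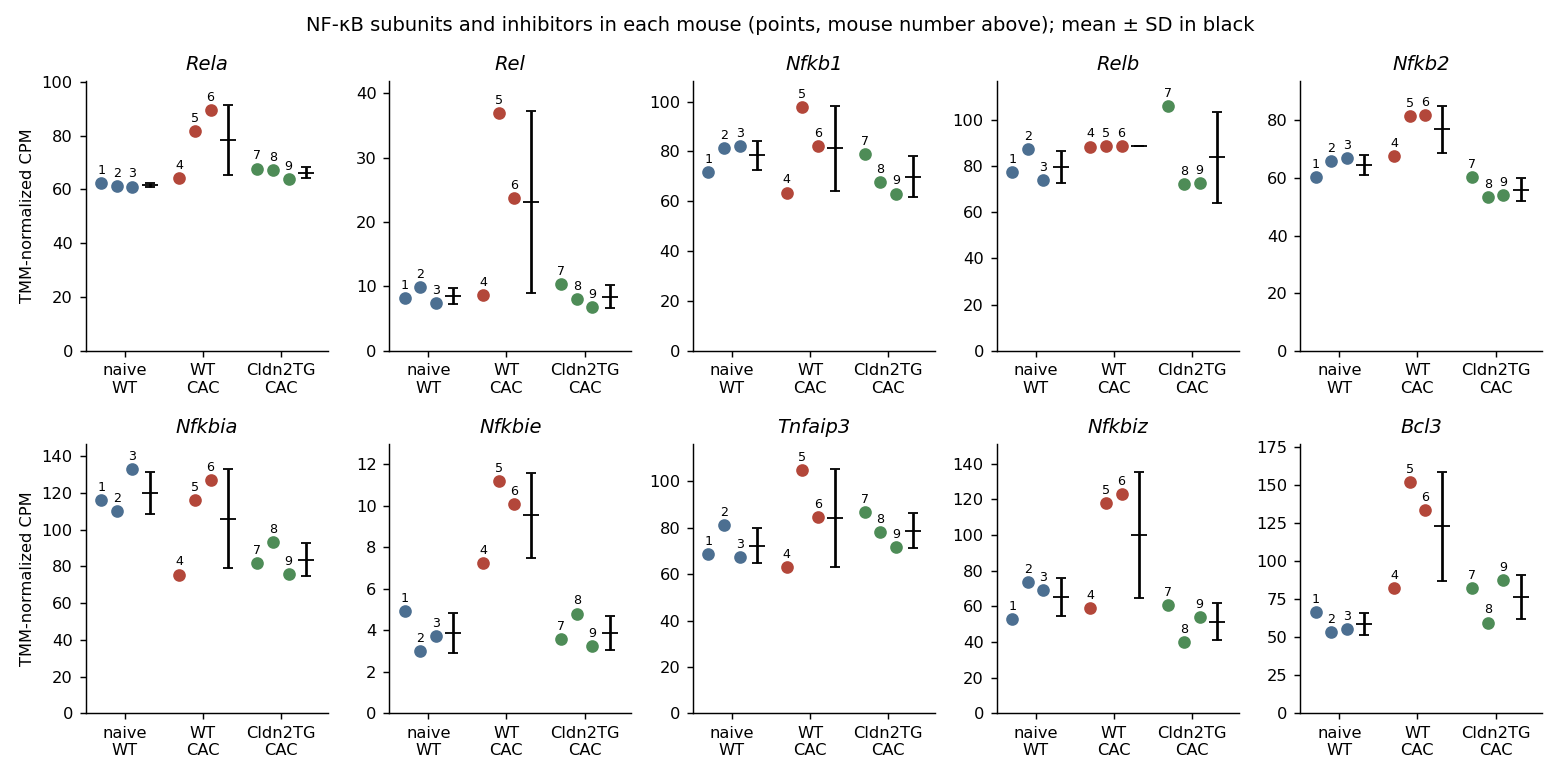
TMM-normalized CPM (y axis, from 0) of the 10 genes in each of the 9 mice, 1 point per mouse with its number, by group; the black bar is the mean with the SD (n = 3). *Nfkbie* has 7.26 to 11.2 CPM in WT CAC mice against 3.01 to 4.93 in the other 6, *Bcl3* and *Rel* are highest in WT CAC mice 5 and 6, and WT CAC mouse 4 lies lowest of its group for all 10 genes, though for *Relb* by less than counting error.

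Among the canonical subunits, none of the 3 was called in any comparison, and *Rela* was the steadiest of the 10 genes in naive WT mice (coefficient of variation 1.13%). *Rela* (ENSMUSG00000024927, chr19:5637483-5648130, plus strand) encodes the main transactivating subunit p65. Its level was 62.4, 61.3 and 61.1 CPM in naive WT mice 1, 2 and 3. In WT CAC mice 4, 5 and 6 it was 64.1, 81.8 and 89.5 CPM, and in *Cldn2*TG CAC mice 7, 8 and 9 it was 67.8, 67.2 and 64.0 CPM. All naive WT mice lay below all other mice, and mouse 4 lay among the *Cldn2*TG CAC mice. The log2 fold change was 0.37 in WT CAC against naive WT (standard error 0.14, adjusted p = 0.101), −0.26 in *Cldn2*TG CAC against WT CAC (standard error 0.14, adjusted p = 0.324) and 0.11 in *Cldn2*TG CAC against naive WT (standard error 0.09, adjusted p = 0.455). Without mouse 4 the first was 0.50 and passed (adjusted p = 0.0124).

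*Rel* (ENSMUSG00000020275, chr11:23736847-23770970, minus strand) encodes c-Rel, a subunit known mainly from lymphoid and myeloid cells. It was present at 8.26, 9.89 and 7.47 CPM in naive WT mice 1 to 3. WT CAC mice 4 to 6 had 8.64, 37.0 and 23.8 CPM and *Cldn2*TG CAC mice 7 to 9 had 10.3, 8.06 and 6.87 CPM. Mice 5 and 6 were above all others, whereas mouse 4 lay within the range of both other groups. The coefficient of variation in WT CAC mice was 61.3%, the largest of the 10 genes in any group. With this spread a log2 fold change of 1.46 (standard error 0.47) did not pass in WT CAC against naive WT (adjusted p = 0.0783), nor did −1.48 (standard error 0.48) in *Cldn2*TG CAC against WT CAC (adjusted p = 0.109). Between *Cldn2*TG CAC and naive WT mice it was −0.01 (standard error 0.20). DESeq2, with 20.9% and 13.9% of all genes called in these comparisons, called *Rel* in both (adjusted p = 0.00507 and 0.00484). Without mouse 4 the log2 fold changes were 1.85 and −1.86 and passed, and without mouse 5 they were 0.96 and −0.97 and did not. Over all alternatives the adjusted p ranged from 0.00102 to 0.23 in the first and from 0.000698 to 0.323 in the second.

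*Nfkb1* (ENSMUSG00000028163, chr3:135584655-135691547, minus strand) encodes p105, the precursor of p50. Its 3 groups overlapped, with 71.9, 81.3 and 82.0 CPM in naive WT, 63.5, 97.9 and 82.0 CPM in WT CAC and 78.9, 67.7 and 63.1 CPM in *Cldn2*TG CAC mice. WT CAC mouse 5 had the highest value, and *Cldn2*TG CAC mouse 9 and WT CAC mouse 4 had the lowest. *Nfkb1* differed by a log2 fold change of 0.07 (standard error 0.16), −0.24 (0.17) and −0.16 (0.11) in the 3 comparisons, and the smallest adjusted p was 0.395.

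Neither noncanonical subunit was called in any comparison, and *Nfkb2* came closest in *Cldn2*TG CAC against WT CAC mice. *Nfkb2* (ENSMUSG00000025225, chr19:46304737-46312090, plus strand) encodes p100, both an inhibitor of RelB and the precursor of p52. Naive WT mice had 60.5, 65.9 and 66.8 CPM, WT CAC mice 67.5, 81.5 and 81.8 CPM, and *Cldn2*TG CAC mice 60.5, 53.4 and 54.1 CPM. Every WT CAC mouse was above every other mouse, with mouse 4 the nearest to the naive WT group. The log2 fold change in *Cldn2*TG CAC against WT CAC was −0.48 (standard error 0.13, adjusted p = 0.0503), just outside the threshold. It was called with DESeq2 (adjusted p = 0.0158), with library size, upper-quartile or lane 1 counts, with at least 10 counts in every mouse, with all 9 mice in the fit and without mouse 4, so that this call depends on the setting (adjusted p from 0.0137 to 0.201 over all alternatives). Against naive WT mice the log2 fold change was 0.28 for WT CAC (standard error 0.12, adjusted p = 0.133; 0.36 without mouse 4, adjusted p = 0.0345) and −0.20 for *Cldn2*TG CAC (standard error 0.10, adjusted p = 0.232).

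*Relb* (ENSMUSG00000002983, chr7:19606217-19629438, minus strand) encodes the partner of p52. WT CAC mice had 88.4, 88.5 and 88.6 CPM, which is a coefficient of variation of 0.0857%. Naive WT mice had 77.2, 87.4 and 74.1 CPM and *Cldn2*TG CAC mice 106, 72.1 and 72.8 CPM. The likeness of the 3 WT CAC values is closer than counting error alone would give on 1323 to 2001 reads, and mouse 7 stood above the other 8 mice. The differences of *Relb* on the log2 scale were 0.18 (standard error 0.11, adjusted p = 0.275), −0.10 (0.17, adjusted p = 0.801) and 0.08 (0.15, adjusted p = 0.78) in the 3 comparisons.

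The calls differed between the 3 cytoplasmic inhibitors, and whether their changes differ from each other was not tested. In *Cldn2*TG CAC against WT CAC mice all 3 were lower in sign. *Nfkbie* was highest in WT CAC mice, *Nfkbia* was lower in *Cldn2*TG CAC mice than in naive WT mice, and *Tnfaip3* was called nowhere. *Nfkbie* (ENSMUSG00000023947, chr17:45555716-45563169, plus strand) encodes IκBε, an inhibitor resynthesized later than IκBα after stimulation in cells in culture. It was the lowest of the 10 genes in CPM, with 984 counts over all mice. Naive WT mice had 4.93, 3.01 and 3.73 CPM (99, 60 and 86 counts). WT CAC mice had 7.26, 11.2 and 10.1 CPM (143, 254 and 151 counts) and *Cldn2*TG CAC mice 3.58, 4.81 and 3.25 CPM (52, 95 and 44 counts). All 3 WT CAC mice were above all 6 other mice, mouse 4 being the nearest, and the other groups overlapped each other. The log2 fold change was 1.32 in WT CAC against naive WT (standard error 0.26, adjusted p = 0.0204) and −1.31 in *Cldn2*TG CAC against WT CAC (standard error 0.26, adjusted p = 0.0182). In *Cldn2*TG CAC against naive WT it was 0.01 (standard error 0.26, adjusted p = 0.985). An exact permutation test gave p = 0.1 for each of the first 2 differences, the smallest p that 3 mice against 3 allow. The first call was kept without naive WT mouse 1 (adjusted p = 0.0424) and without WT CAC mouse 4 (adjusted p = 0.00497), and was lost without naive WT mice 2 (0.0837) or 3 (0.0792) or WT CAC mice 5 (0.0565) or 6 (0.0513). The second was kept without WT CAC mice 4 (adjusted p = 0.0026) or 6 (0.0493) and lost without WT CAC mouse 5 (0.0649) or *Cldn2*TG CAC mice 7 (0.0745), 8 (0.0621) or 9 (0.0886). Over all 14 alternatives the log2 fold change lay between 1.15 and 1.52 and between −1.54 and −1.01, and DESeq2 and each lane alone called both.

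*Nfkbia* (ENSMUSG00000021025, chr12:55489411-55492647, minus strand) encodes IκBα, whose loss releases the canonical dimers. Naive WT mice had 116, 110.0 and 133 CPM. WT CAC mice had 75.6, 116 and 127 CPM and *Cldn2*TG CAC mice 81.8, 93.5 and 75.9 CPM. All *Cldn2*TG CAC mice were below all naive WT mice, while WT CAC mice 5 and 6 lay with the naive WT group and mouse 4 with the *Cldn2*TG CAC group. The log2 fold change in *Cldn2*TG CAC against naive WT was −0.51 (standard error 0.11, adjusted p = 0.0181; exact permutation test, p = 0.1). It was called by DESeq2 (adjusted p = 0.0013) and lost with all 9 mice in one fit (adjusted p = 0.13), without naive WT mouse 3 (0.0797) and without *Cldn2*TG CAC mouse 9 (0.0577). WT CAC mice did not differ detectably from naive WT mice (−0.15, standard error 0.19, adjusted p = 0.621). *Cldn2*TG CAC against WT CAC gave −0.36 (standard error 0.19, adjusted p = 0.312), which without mouse 4 was −0.55 and passed (adjusted p = 0.0207).

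*Tnfaip3* (ENSMUSG00000019850, chr10:19000910-19015657, minus strand), which encodes A20, overlapped in all comparisons. It was at 68.5, 81.0 and 67.2 CPM in naive WT, 63.0, 105 and 84.4 CPM in WT CAC and 86.8, 77.9 and 71.5 CPM in *Cldn2*TG CAC mice. Mouse 4 had the lowest and mouse 5 the highest value of all 9. In the 3 comparisons the log2 fold change was 0.24 (standard error 0.18), −0.12 (0.18) and 0.13 (0.11), and the smallest adjusted p of the 3 was 0.391.

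The nuclear IκB genes were both higher in WT CAC mice 5 and 6 than in any other mouse, and *Bcl3* passed the test against naive WT mice. *Bcl3* (ENSMUSG00000053175, chr7:19808462-19822770, minus strand) encodes a co-regulator of p50 and p52 homodimers. Naive WT mice had 66.9, 53.8 and 55.3 CPM. WT CAC mice had 82.3, 152 and 134 CPM and *Cldn2*TG CAC mice 82.5, 59.8 and 87.5 CPM. WT CAC mice were above all naive WT mice, but mouse 4 was level with *Cldn2*TG CAC mouse 7 and below mouse 9. Its log2 fold change was 1.09 in WT CAC against naive WT (standard error 0.22, adjusted p = 0.021), −0.70 in *Cldn2*TG CAC against WT CAC (standard error 0.24, adjusted p = 0.11) and 0.39 in *Cldn2*TG CAC against naive WT (standard error 0.15, adjusted p = 0.14). The second difference passed with DESeq2 (adjusted p = 0.035) and without mouse 4 (−0.91, adjusted p = 0.00521), and the third without *Cldn2*TG CAC mouse 8 (0.54, adjusted p = 0.0498) and with no filter on low counts (adjusted p = 0.0137). The call of WT CAC against naive WT was kept without mouse 4 (adjusted p = 0.000644) and lost without any one of the other 5 mice, naive WT mice 1 (0.0568), 2 (0.0892) and 3 (0.08) and WT CAC mice 5 (0.0537) and 6 (0.0568). *Bcl3* shares 161 exonic bases with the antisense gene Gm16175, which had 7 counts over all mice against 14297, and *Nfkb2* shares 4 with *Psd*.

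*Nfkbiz* (ENSMUSG00000035356, chr16:55811375-55838899, minus strand) encodes IκBζ, which is induced by IL-1, IL-17 and Toll-like receptor ligands. Naive WT mice had 53.1, 73.4 and 69.3 CPM, WT CAC mice 59.3, 118 and 123 CPM, and *Cldn2*TG CAC mice 60.6, 39.9 and 54.0 CPM. Mice 5 and 6 were above all others and mouse 4 lay within both other groups. The log2 fold change was 0.64 in WT CAC against naive WT (standard error 0.27, adjusted p = 0.151), −0.98 in *Cldn2*TG CAC against WT CAC (standard error 0.28, adjusted p = 0.0744) and −0.34 in *Cldn2*TG CAC against naive WT (standard error 0.17, adjusted p = 0.24). The first difference passed without mouse 4 (0.90, adjusted p = 0.00431) and the last with no filter on low counts (adjusted p = 0.0406). For the second difference the adjusted p ranged from 0.0012 to 0.224 over the alternatives, of which DESeq2, all 9 mice in one fit and the fit without mouse 4 passed.

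**Figure D2:**
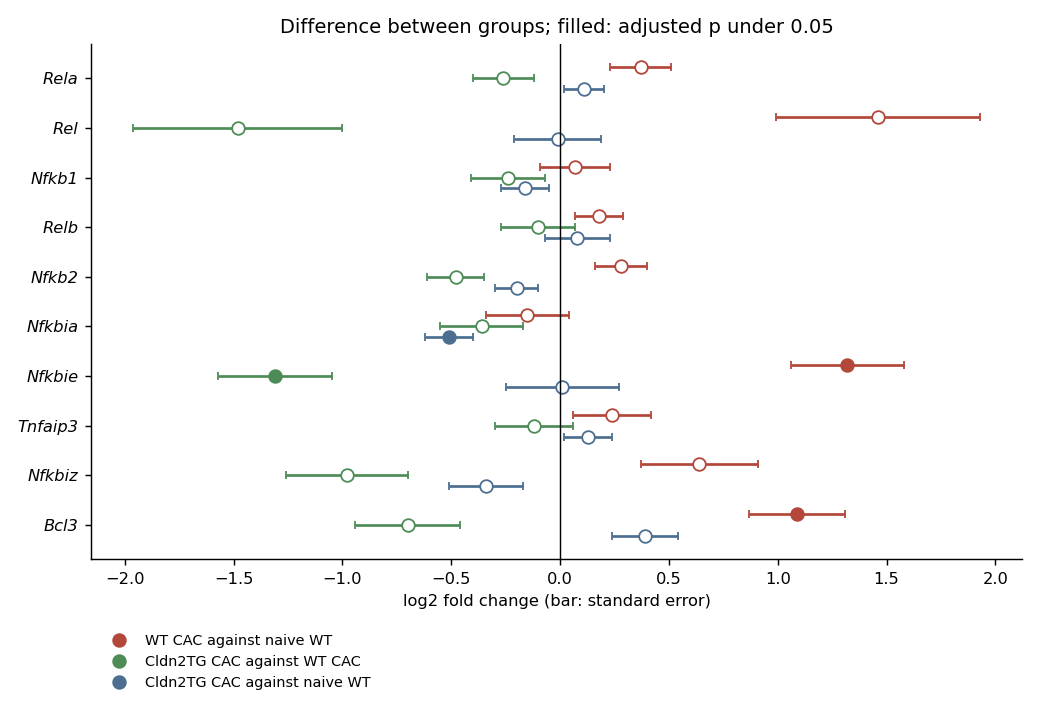
Log2 fold change (x axis) of the 10 genes (y axis) in the 3 comparisons, by colour; the bar is 1 standard error on each side, and a filled point has an adjusted p under 0.05 (edgeR, n = 3 mice per group). Filled points are *Nfkbie* (1.32) and *Bcl3* (1.09) for WT CAC against naive WT, *Nfkbie* (−1.31) for *Cldn2*TG CAC against WT CAC, and *Nfkbia* (−0.51) for *Cldn2*TG CAC against naive WT.

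WT CAC mouse 4 decided how many of the 10 genes were called. Without it, 6 were called in WT CAC against naive WT (*Rela*, *Rel*, *Nfkb2*, *Nfkbie*, *Nfkbiz* and *Bcl3*), where 25.7% of all genes were then called, and 6 in *Cldn2*TG CAC against WT CAC (*Rel*, *Nfkb2*, *Nfkbia*, *Nfkbie*, *Nfkbiz* and *Bcl3*), beside 19.2% of all genes. Without naive WT mice 2 or 3 or WT CAC mice 5 or 6, edgeR called no gene of the 10 in the first comparison (2 to 3 at an unadjusted p under 0.05), and without naive WT mouse 1 it called *Nfkbie* alone. Over all genes, these fits called 135, 404, 1245, 1062 and 631 in the same order, against 2310 with all mice. In the second comparison, none of the 10 was called without WT CAC mouse 5 or without any 1 of the *Cldn2*TG CAC mice (3 to 6 at an unadjusted p under 0.05), and *Nfkbie* alone was without WT CAC mouse 6. Over all genes, calls fell from 1421 to 555 without WT CAC mouse 5 and to 805 without WT CAC mouse 6. Without *Cldn2*TG CAC mice 7, 8 and 9 they fell to 460, 58 and 108. In the third comparison, none of the 10 was called without naive WT mouse 3 or *Cldn2*TG CAC mouse 9 (1 at an unadjusted p under 0.05 each). Leaving out single mice there gave 525 to 1383 calls over all genes, against 1501 with all mice. With all mice, the count at an unadjusted p under 0.05 was 6, 5 and 2 of the 10 in the 3 comparisons in turn. Over all genes tested it was 5032 of 15437, 3498 of 14888 and 3896 of 15013, so that those of the 10 are small counts.

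The levels of the 10 genes were set in order per length, as CPM per exonic kilobase (RPKM). *Nfkbia* was highest in every group, at 76.0 ± 7.32 in naive WT, 67.3 ± 17.1 in WT CAC and 53.1 ± 5.71 in *Cldn2*TG CAC mice (SD, n = 3). *Rel* and *Nfkbie* were lowest in every group, between 1.13 ± 0.236 and 3.94 ± 0.845, and overlapped each other. In naive WT mice *Bcl3* (23.7 ± 2.91) and *Rela* (22.7 ± 0.257) were next to *Nfkbia* and overlapped, as did *Relb* (20.5 ± 1.79) and *Nfkb2* (19.6 ± 1.04), and *Nfkbiz* (13.0 ± 2.14) and *Tnfaip3* (10.0 ± 1.06). In WT CAC mice *Bcl3* was second at 49.5 ± 14.5, overlapping *Nfkbia* above and not *Rela* (28.9 ± 4.80) below. *Nfkb1* was eighth in every group (5.80 to 6.73 on average) on this scale. Its exons span 12061 bases in the table and 4117 in its longest coding transcript, with which length it averaged 19.0 ± 1.38 in naive WT mice and overlapped *Nfkb2* and *Tnfaip3*, so that its place depends on the length used. The order of other genes did too: by the longest coding transcript *Relb* came second in naive WT mice at 36.0 ± 3.15, overlapping *Bcl3* (31.7 ± 3.89), which no longer overlapped *Rela*, and *Tnfaip3* was at 16.3 ± 1.73. *Nfkbia* stayed highest on average, and *Rel* and *Nfkbie* lowest, in every group with either length.

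The share of the noncanonical subunits in the subunit mRNA pool overlapped between all groups. Of the RPKM of the 5 subunit genes, the noncanonical *Relb* and *Nfkb2* held 56.9 ± 1.10% in naive WT, 54.7 ± 3.81% in WT CAC and 55.0 ± 2.93% in *Cldn2*TG CAC mice (SD, n = 3). An exact permutation test gave p = 0.4, 0.9 and 0.4 for the 3 comparisons. The overlap depended on single mice. Without WT CAC mouse 4 the first difference went from −2.19 to −4.37 percentage points (exact permutation test, p = 0.1). Without *Cldn2*TG CAC mouse 7 the third went from −1.92 to −3.53 percentage points (exact permutation test, p = 0.1). *Rel* took 1.62, 1.81 and 1.44% of the pool in naive WT mice and 1.76, 1.63 and 1.42% in *Cldn2*TG CAC mice. Its share in WT CAC mice was 1.58, 5.46 and 3.52%, so that mouse 4 again lay with the other groups. *Nfkb2* took 23.4 to 25.3% in *Cldn2*TG CAC mice and 26.9 to 29.2% in the other 6, a separation that was noticed in the values and not tested.

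The ratio of inhibitor to subunit mRNA was lower in every treated mouse than in any naive WT mouse when levels were taken per length. The summed RPKM of *Nfkbia*, *Nfkbie* and *Tnfaip3* divided by that of the 5 subunits was 1.25, 1.13 and 1.36 in naive WT mice. It was 0.814, 1.02 and 1.06 in WT CAC and 0.831, 1.09 and 0.914 in *Cldn2*TG CAC mice, below every naive WT mouse in all 6. The ratio was 0.772-fold that of naive WT mice in WT CAC and 0.755-fold in *Cldn2*TG CAC mice (exact permutation test, p = 0.1 for each, the smallest p possible), and 0.978-fold in *Cldn2*TG CAC against WT CAC mice (exact permutation test, p = 1.0). *Nfkbia* makes up most of the numerator per length. Without division by length the log2 ratio moved from −0.40 to −0.19 in *Cldn2*TG CAC against naive WT (exact permutation test, p = 0.2) and from −0.37 to −0.24 in WT CAC against naive WT (exact permutation test, p = 0.1). These comparisons share the naive WT mice.

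**Figure D3:**
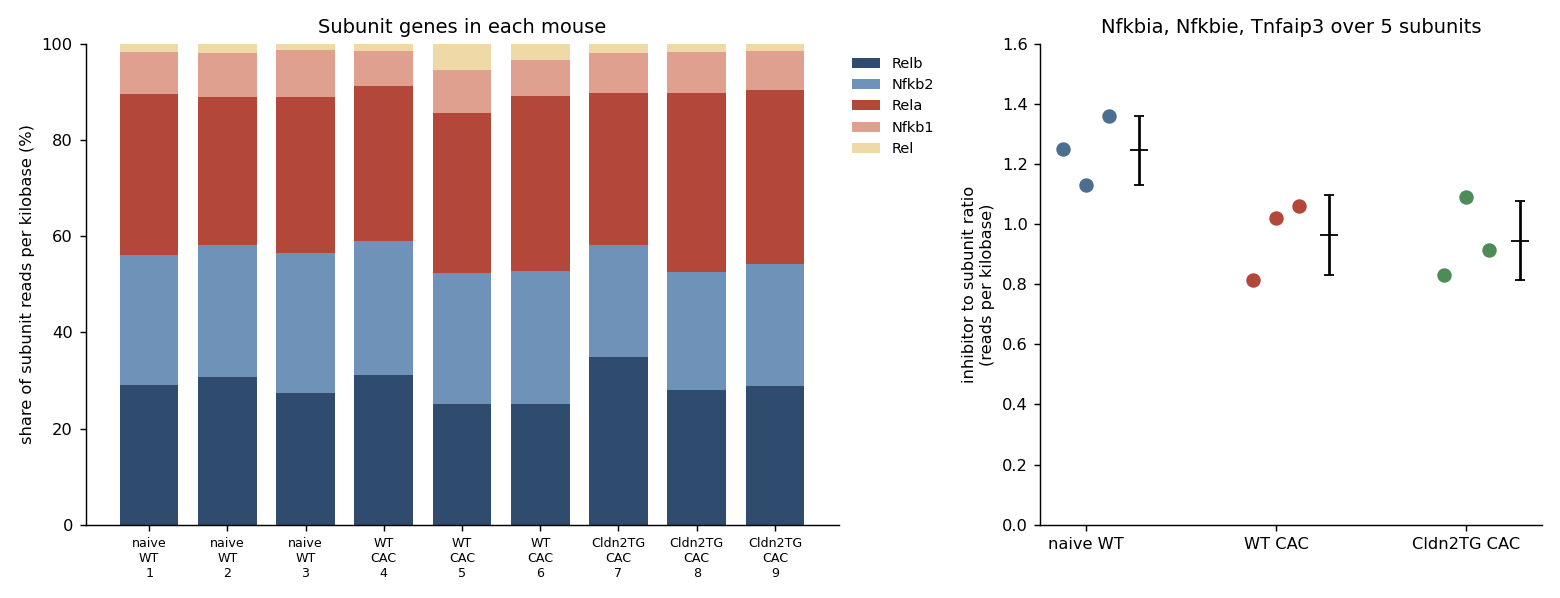
Left, the share of each subunit gene (percent of the summed reads per exonic kilobase) in each mouse; right, the ratio of the 3 inhibitor genes to the 5 subunit genes on the same scale, 1 point per mouse with mean and SD (n = 3). The *Rel* share is 5.46% and 3.52% in WT CAC mice 5 and 6 and at most 1.81% elsewhere, and the ratio is 1.13 to 1.36 in naive WT mice and at most 1.09 in the other 6.

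The rest of the pathway was examined in 79 other genes, in 6 lists by role. In WT CAC against naive WT mice 15 were called higher and 4 lower of 72 tested, in *Cldn2*TG CAC against WT CAC mice 1 higher and 9 lower of 71, and in *Cldn2*TG CAC against naive WT mice 1 higher and 1 lower of 68. Over all genes tested, 15.0%, 9.54% and 10.0% were called in these comparisons. At an unadjusted p under 0.05 there were 29, 32 and 12 pathway genes, beside 5032 of 15437, 3498 of 14888 and 3896 of 15013 genes tested. Of the 19 calls in the first comparison, 14 were ligands, receptors or induced targets, as were the 10 in the second and 1 of the 2 in the last, and whether the lists differ was not tested. The calls depended on single mice: without naive WT mouse 2 none of the 79 was called in the first comparison by edgeR (29 at an unadjusted p under 0.05, as with all mice), without WT CAC mouse 4 34 were, and without *Cldn2*TG CAC mouse 8 1 was called in the second. Over all genes, these fits called 135, 4080 and 58 in the same order. Leaving out any 1 of the other mice gave 2 to 10 calls in the first comparison (naive WT mice 1 and 3, WT CAC mice 5 and 6) and 2 to 6 in the second (WT CAC mice 5 and 6, *Cldn2*TG CAC mice 7 and 9), where the fit without WT CAC mouse 4 gave 32. When each mouse was left out in turn, *Vcam1* in the second comparison was the only 1 of these calls kept throughout, and the 2 calls against naive WT in *Cldn2*TG CAC mice were both lost without naive WT mice 1 or 3 or *Cldn2*TG CAC mouse 8 (9 to 13 of the pathway genes at an unadjusted p under 0.05). The other IκB genes, *Nfkbib* (IκBβ) and *Nfkbid* (IκBNS), were called nowhere, with log2 fold changes of 0.10, 0.11 and 0.21 for *Nfkbib* and 0.32, −0.43 and −0.10 for *Nfkbid* in the 3 comparisons. Of 10 kinases, 1 was called in WT CAC against naive WT, *Map3k14*, the kinase NIK of the noncanonical route (0.62, standard error 0.15, adjusted p = 0.0308), and none in the other comparisons. Of 17 adaptors and ubiquitin ligases, 1 was called there, *Traf2* (0.49, standard error 0.11, adjusted p = 0.0262). For both genes every WT CAC mouse was above every naive WT mouse, at 12.7 to 14.8 CPM against 8.74 to 9.51 for *Map3k14* and 41.2 to 44.4 against 29.5 to 32.9 for *Traf2*. The median log2 fold change of these 2 lists was 0.05 in that comparison.

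Of 11 deubiquitinases and partners of A20, 3 were called in WT CAC against naive WT mice, in both directions. *Zc3h12a*, which encodes the RNase Regnase-1 that degrades inflammatory mRNAs, rose (1.49, standard error 0.34, adjusted p = 0.0327). It had 37.9, 38.9 and 41.6 CPM in naive WT and 52.5, 146 and 129 CPM in WT CAC mice, with mouse 4 once more nearest to the naive WT group. *Tnip2* rose (0.60, adjusted p = 0.0272) and *Tnip1* fell by 0.66 (adjusted p = 0.0354), both encoding ABIN proteins that bind A20. *Tax1bp1*, an A20 adaptor, was called higher in *Cldn2*TG CAC against naive WT mice (0.39, standard error 0.09, adjusted p = 0.0197).

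Of the ligands and receptors, 16 of 19 were tested in the first and second comparison. In WT CAC against naive WT 5 rose and 2 fell (median 1.42), and in *Cldn2*TG CAC against WT CAC 1 rose and 6 fell (median −1.66). *Il1b*, the cytokine IL-1β, was at 0.402 to 0.697 CPM in naive WT mice, 1.78, 18.8 and 10.0 CPM in WT CAC mice and 0.456 to 0.886 CPM in *Cldn2*TG CAC mice. On the log2 scale it rose by 4.1 in WT CAC against naive WT and fell by 4.0 in *Cldn2*TG CAC against WT CAC (adjusted p = 0.0249 and 0.0322), with mouse 4 between the groups. In the first comparison *Il18r1*, a subunit of the IL-18 receptor, rose by 2.53 (adjusted p = 0.0453) and *Ltb*, lymphotoxin β, by 2.26 (adjusted p = 0.0476). In the second, *Cd40* fell by 2.54 (adjusted p = 0.0138) and *Tnfsf11*, the ligand RANKL, fell by 2.34 (adjusted p = 0.00973), from levels of 1.52 to 3.63 and 1.90 to 2.54 CPM in WT CAC mice. *Tnfrsf11a*, the receptor RANK, was called lower than in naive WT mice (129 to 136 CPM) in both WT CAC (54.2 to 77.3 CPM, log2 fold change −0.94, adjusted p = 0.0104) and *Cldn2*TG CAC mice (95.8 to 109 CPM, −0.40, adjusted p = 0.0223), and *Cldn2*TG CAC against WT CAC did not pass (0.54, adjusted p = 0.064).

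Of the induced targets, 6 rose and 1 fell of 16 tested in WT CAC against naive WT (median 1.81), and 3 fell and none rose of 15 tested in *Cldn2*TG CAC against WT CAC (median −2.23). *Saa3*, an acute-phase serum amyloid, rose by 5.86 (standard error 1.31, adjusted p = 0.0325), from 0.199 to 0.478 CPM in naive WT mice to 1.17, 23.2 and 41.8 CPM. *Nos2*, inducible nitric oxide synthase, rose by 5.06 (standard error 1.16, adjusted p = 0.035) and *Il23a* by 3.36 (standard error 0.78, adjusted p = 0.0303), the latter from a level near that of 3 counts. *Nos2* had 11.0 CPM in mouse 4 against 307 and 127 in mice 5 and 6. In *Cldn2*TG CAC against WT CAC mice the adhesion molecules *Icam1* (−2.68, adjusted p = 0.0245) and *Vcam1* (−2.45, adjusted p = 0.00426) and the chemokine *Ccl20* (−0.86, adjusted p = 0.0219) fell. *Vcam1* was called in this comparison under every alternative.

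**Figure D4:**
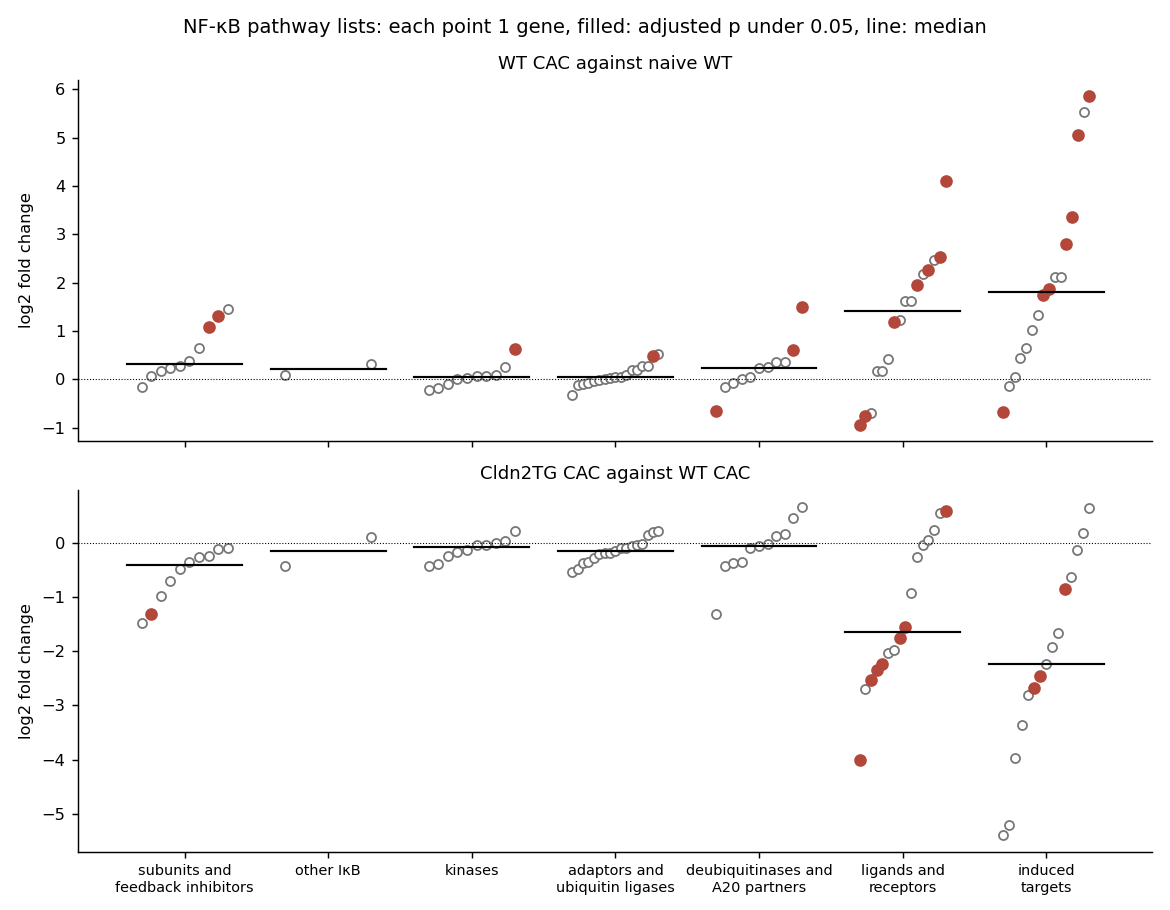
Log2 fold change (y axis) of each tested gene of the 10 subunits and inhibitors and of 6 further pathway lists (x axis), for WT CAC against naive WT (top) and *Cldn2*TG CAC against WT CAC (bottom); filled points have an adjusted p under 0.05 and lines are medians. The medians of kinases and adaptors lie within 0.15 of 0 in both panels, and those of ligands and receptors (1.42 and −1.66) and of induced targets (1.81 and −2.23) lie on opposite sides of 0.

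Leukocyte markers moved with several of these results. In bulk colon, fewer cells of a type and less RNA per cell cannot be told apart. All 5 pan-leukocyte markers, *Coro1a* and *Laptm5* the highest, were called higher in WT CAC than in naive WT mice and all 5 lower in *Cldn2*TG CAC than in WT CAC mice. Their summed level was 58.6, 20.9 and 37.3 CPM in naive WT, 124, 156 and 150.0 CPM in WT CAC and 36.6, 38.0 and 22.7 CPM in *Cldn2*TG CAC mice, with none of the 5 at 0. Mouse 4 was thus the lowest of the WT CAC mice but well above the other groups. The order of the 9 mice in *Nfkbie* was that of this sum, whereas *Relb*, with 3 level WT CAC values, and *Nfkbia*, lowest in mouse 4, did not follow it. *Rel* and *Bcl3* followed it in part: mice 5 and 6 were highest in both genes, but mouse 4, with a sum of 124 CPM, had 8.64 CPM of *Rel*, within the naive WT range, and 82.3 CPM of *Bcl3*, below *Cldn2*TG CAC mice 7 and 9 with sums of 36.6 and 22.7 CPM. The part of leukocyte content in the levels of *Nfkbie*, *Bcl3* and *Rel* was not tested.

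By cell type, 6 of 8 macrophage and monocyte markers, *Lyz2* and *C1qa* the highest, were called higher in WT CAC against naive WT and 6 of 8 lower in *Cldn2*TG CAC against WT CAC, with summed levels of 57.1 to 103, 132 to 296 and 37.5 to 69.8 CPM in the 3 groups. Of 7 T cell markers (*Cd3g*, *Cd4*), 6 were called in each of these comparisons, at 3.23 to 7.21, 15.3 to 28.9 and 4.0 to 7.31 CPM. Of 6 B cell markers (*Cd79b*, *Cd79a*), none and 1 were called, at 3.82 to 31.8, 28.2 to 55.9 and 3.03 to 20.1 CPM. The neutrophil sum of 137 to 208, 300.0 to 378 and 302 to 351 CPM was mostly *Ly6g*, with *S100a9* second. *Retnlg* was at 0 in all naive WT mice and *Mmp8* in all *Cldn2*TG CAC mice, and 4 of 7 markers were tested and called higher in WT CAC against naive WT. Of the 3 neutrophil markers tested in *Cldn2*TG CAC against WT CAC, 2 were called lower, *S100a9* (from a mean of 11.6 to 0.146 CPM, adjusted p = 0.0386) and *Csf3r* (from 3.05 to 0.0797 CPM, adjusted p = 0.034), while *Ly6g*, which sets the sum, averaged 314 and 328 CPM. Against naive WT, *Ly6g* was the 1 neutrophil marker tested in *Cldn2*TG CAC mice and was called higher. The other neutrophil markers averaged at most 0.205 CPM in both groups, near the level of 3 counts. Of the 5 fibroblast markers (*Dcn*, *Col1a2*) 1, of the 4 endothelial markers (*Pecam1*, *Vwf*) 2, and of the 5 smooth muscle markers (*Tagln*, *Des*) none were called lower in *Cldn2*TG CAC against WT CAC. All 5 fibroblast markers were lower in sign there, and higher in sign, with none called, in WT CAC against naive WT. Fibroblast sums were 151 to 216 CPM in naive WT, 224 to 612 in WT CAC and 118 to 153 in *Cldn2*TG CAC mice. The part of fibroblasts in the level of *Nfkbie* was not tested. For *Nfkbia*, called in *Cldn2*TG CAC against naive WT, none of the 5 pan-leukocyte markers was called in that comparison, and smooth muscle sums were 819 to 1276 against 1751 to 3297 CPM with 2 of 5 called lower. In the same comparison 3 of 4 endothelial markers were called lower, with sums of 18.0 to 21.3 against 29.3 to 37.3 CPM, and 1 of 5 fibroblast markers, with sums of 118 to 153 against 151 to 216 CPM. Of the 9 colon epithelium markers, 1 was called higher there (*Krt8*, 0.43, adjusted p = 0.0384), with 7 of 9 on the higher side and overlapping sums of 14981 to 19857 against 14474 to 16813 CPM. In the other 2 comparisons edgeR called none of these 9 (1 and 2 at an unadjusted p under 0.05). In WT CAC mice 4, 5 and 6 smooth muscle sums were 2504, 915 and 1072 CPM, and *Nfkbia* was at 75.6, 116 and 127 CPM. The part of these cell types in the level of *Nfkbia* was not tested.

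**Figure D5:**
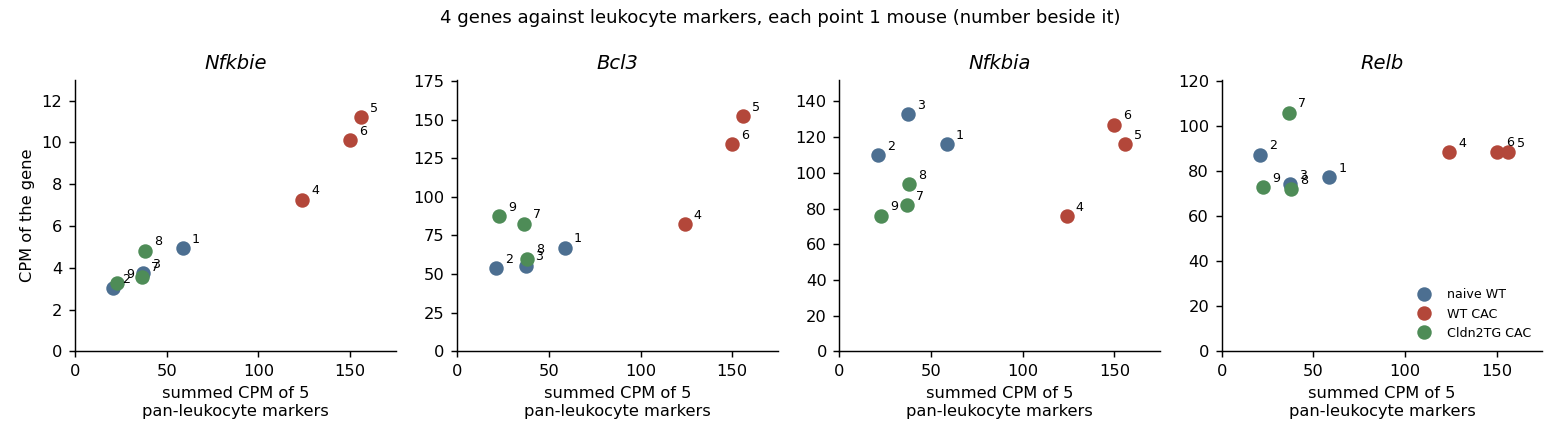
CPM of *Nfkbie*, *Bcl3*, *Nfkbia* and *Relb* (y axes, from 0) against the summed CPM of 5 pan-leukocyte markers (x axis), 1 numbered point per mouse, coloured by group. *Nfkbie* lies low where the sum is at most 58.6 and high where it is at least 124, *Bcl3* does so except that mouse 4 is level with *Cldn2*TG CAC mice 7 and 9, *Nfkbia* overlaps between both ends, and *Relb* is level at 88.4 to 88.6 CPM at the high end, within its range of 72.1 to 106 at the low end.

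The genes most like each of the 10 over the 9 mice were found by Pearson's r of log2 CPM among 122 genes of the pathway and marker lists, as a description over mice that share 3 groups. *Nfkbie* was nearest to *Laptm5* (r = 0.976), a leukocyte membrane protein, and *Icam1* (0.969). *Nfkb2* was nearest to the macrophage receptors *Csf1r* (0.964) and *Adgre1* (0.961), and *Nfkbiz* to *Adgre1* (0.95) and *Bcl2l1* (0.944). *Rela* was nearest to *Saa3* (0.959) and *Lcn2* (0.953), and *Bcl3* to *Nos2* (0.952) and *Zc3h12a* (0.949). *Zc3h12a* belongs to the list of deubiquitinases and partners of A20, and the other genes named for these 5 are leukocyte markers or induced targets. *Rel* was nearest to *Otud7b* (0.951) and *Tnfrsf1b* (0.933), *Tnfaip3* to *Cyld* (0.894) and *Otud7b* (0.873), and *Nfkb1* to *Map3k7* (0.92) and *Traf6* (0.857), which are mostly signalling genes. *Nfkbia*, nearest to *Cxcl10* (0.74) and *Traf3* (0.716), and *Relb*, nearest to *Otud7b* (0.55) and *Map3k7* (0.519), resembled no listed gene closely. Among the 10 themselves the highest r was that of *Nfkb2* and *Nfkbiz* (0.948) and the lowest that of *Relb* and *Nfkbia* (−0.156).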

How the data were processed

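Colon RNA-Seq libraries of 9 mice, each in 2 lanes (18 columns, 0 columns without a sample), were analysed. The deposited values are whole-number counts of reads per gene, without normalization, made by the authors. The study's methods name TopHat2, featureCounts of the Subread package and DESeq2, whereas the submitters' processing notes name HISAT2, featureCounts, Subread and GRCm38. Versions, settings and whether counting used strand are not given in the sources used here. The labelled protocol gives AOM and DSS under the control samples too, so naive WT mice were taken from the treatment label. Symbols came from a table of gene names (47224 of 47729 identifiers), and 7 of the 10 genes have the same start and end in GENCODE M21.

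Lanes were added. Each comparison was fitted with edgeR 4.0.16 (R 4.3.3) on its 6 mice, with TMM, filterByExpr (minimum count 10, minimum total count 15) and a robust two-sided quasi-likelihood test, and tested on simulated data. Biological coefficients of variation were 0.218 (WT CAC against naive WT), 0.217 (*Cldn2*TG CAC against WT CAC) and 0.149 (*Cldn2*TG CAC against naive WT). CPM used TMM factors over all 9 mice, and RPKM the exonic length in the count table. Alternatives were DESeq2 1.42.0, library size and upper-quartile scaling, all 9 mice in one fit, each lane alone, no filter, at least 10 counts in every mouse, leaving out each mouse, counts not divided by length and, chosen after seeing the data, the length of the longest coding transcript. Single ratios and shares had a two-sided exact permutation test. Log2 CPM for the likeness of genes had a prior count of 2 and a mean of at least 1 CPM. Tables were made with pandas 2.3.3 and scipy 1.17.1.

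The 10 genes and the lists were chosen with earlier results of these data known. The lists held other IκB genes, kinases, adaptors and ubiquitin ligases, deubiquitinases and A20 partners, ligands and receptors, induced targets, and markers of colon epithelium, leukocytes as a whole, macrophages and monocytes, neutrophils, T cells, B cells, fibroblasts, endothelium and smooth muscle. Named were the 10 genes, the 3 genes of a pathway list with the largest change among those called in a comparison, all other IκB genes, the 2 highest genes of a marker list, the 2 genes most like each of the 10, and *Cldn2*. *Xist*, *Retnlg*, *Mmp8*, *Csf3r*, and the genes overlapping *Bcl3* and *Nfkb2* were named outside this rule after their values were seen.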

Additional observations from a re-analysis of the deposited data

How the results depend on the processing

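Of 420 refits of single genes among the 10, 379 kept their direction where called and their side of the threshold, 25 passed it where the reported test did not, and 16 no longer passed it; none of the calls changed sign. When mice were left out in turn, the number of the 10 called ranged from 0 to 6 in WT CAC against naive WT, 0 to 6 in *Cldn2*TG CAC against WT CAC mice, and 0 to 2 in *Cldn2*TG CAC against naive WT. All genes called ranged from 135 to 4080, from 58 to 2894 and from 525 to 1383, and pathway list genes from 0 to 34, 1 to 32 and 0 to 3. The log2 inhibitor to subunit ratio ranged from −0.45 to −0.26, −0.15 to 0.06 and −0.51 to −0.32, and the noncanonical share from −4.37 to −1.05, −1.34 to 2.45 and −3.53 to −0.696 percentage points. In *Cldn2*TG CAC against WT CAC, DESeq2 called 5 of the 10 and 27 pathway genes (10 reported). All 9 mice in one fit called 4 of the 10, 21 pathway genes and 2136 genes in all (1421 reported). At least 10 counts in every mouse gave 2, 5 and 908, and library size, upper-quartile scaling and lane 1 each gave 2 of the 10. In *Cldn2*TG CAC against naive WT, no filter called 3 of the 10, 8 pathway genes and 2567 genes in all (1501 reported), all 9 mice in one fit 0, 0 and 445, and DESeq2 5 pathway genes. Beside that 0 of the 10, edgeR gave 1 at an unadjusted p under 0.05 in the same fit, and DESeq2 called 1. Without division by length the log2 inhibitor to subunit ratio there was −0.19 (exact permutation test, p = 0.2; −0.40 reported). The causes of these moves were not tested, except that a fit without 1 mouse has fewer samples. No paired analysis was possible because the replicate numbers 1 to 9 are not shared between groups. *Nfkbie*, at 44 to 254 counts per mouse, was called in the first and second comparison with 1 lane alone.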
